A study of Mus musculus with 6 samples.

Results

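The genes described here carry cells through S phase and mitosis. They are 42 genes listed by symbol, 19 that act in DNA replication and 23 that act in mitosis. Of these, 33 were read from the arrays, 15 replication and 18 mitosis genes, out of 18820 genes in the whole series that have a probe set of their own. *Gins2*, *Rfc4*, *Tyms*, *Ccne2*, *Foxm1*, *Ube2c*, *Kif20a* and *Nusap1* were not read because their probe sets carry several gene symbols, and *Ccnb1* has no probe set in the annotation used here. For 3 members with more than 1 probe set the brightest was used.

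The cells were EpRas, a tumor cell line of BALB/c background made from EpH4 mouse mammary epithelial cells by stable overexpression of Ha-Ras. The series asks how 14 days in TGF-β1 change gene expression in these cells. Control cells were left untreated for 14 days (n = 3 arrays), and long-term EMT cells, cells taken through epithelial–mesenchymal transition, were kept with TGF-β1 at 2 ng/ml (n = 3 arrays). Both groups carry the Ha-Ras transgene, both come from the same line, and both were replated in six-well plates shortly before lysis. The design text speaks of triplicate wells and the paper of triplicate samples, and neither says whether the arrays stand for separate cultures. The p-values below therefore measure the spread between these samples, which may be technical. The deposited values are log2 signals made with the Robust Multi-array Average (RMA), 1 per probe set and array. The test was limma's, fitted to all 35556 probe sets, and a gene "rose" or "fell" only at a Benjamini-Hochberg adjusted p under 0.05 and a fold above 1.5, which is 0.585 on the log2 scale.

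Replication starts when the MCM helicase is loaded on origins by Cdc6 and Cdt1, and it needs polymerases, the sliding clamp PCNA and a supply of deoxynucleotides. Transcription of these genes is switched on by E2F factors at the passage from G1 to S. Genes of mitosis are switched on later, in G2, by factors that act through CHR and CCAAT elements close to the start of transcription, and their transcripts are scarce in resting cells. TGF-β is known to hold many normal epithelial cells in G1, while cells with active Ras often keep dividing in its presence.

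Each of the 33 genes read was above the background level of 4.48 on every array, a level that 95% of 1006 probe sets for olfactory receptors did not exceed in their means. Levels are not compared between genes, since probe sets differ in response. Control replicate 1 stood apart from the other controls across the whole array. Over all probe sets its correlation was 0.987 with control replicate 2 and 0.984 with control replicate 3, while these had 0.995 between them. The labels give the raw data of control replicate 1 a position code unlike that of the other 5 arrays, without saying what it means. Values without this array are given beside those that it moves most.

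No replication gene and no mitosis gene rose or fell in long-term EMT cells over the 6 arrays. Among all probe sets, 0.993% rose and 0.928% fell. The genes nevertheless lay lower in EMT cells by small amounts. The mean was lower in EMT cells for 14 of 15 replication and 17 of 18 mitosis genes, 31 of 33 in all, against 44.6% of all probe sets. The median difference was -0.17 on the log2 scale for the replication genes, which is 88.7% of the control level, and -0.28 for the mitosis genes, or 82.4% of it. With each array left out in turn these medians ranged from -0.28 to -0.12 and from -0.33 to -0.24. Over all probe sets the median difference was 0.02. In RNA from whole wells, fewer dividing cells and less of each transcript per cell cannot be told apart.

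At an unadjusted p under 0.05 in limma, 1 replication gene and 8 mitosis genes were lower and 0 were higher, against 6.23% of all probe sets lower. The methods' t-test, without adjustment or a fold limit, gave 2 and 8 lower, against 5.57% of all probe sets. The 95% interval of the difference lay within 1.5-fold in both directions for 10 replication and 11 mitosis genes, that is 21 of 33, against 70.9% of all probe sets, and for 10 and 9 genes without control replicate 1. For these 21 genes a change beyond 1.5-fold is outside the interval, and for the other 12 it is inside. All 33 genes were measured on the same 6 arrays and are not independent of each other.

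**Figure D1:**
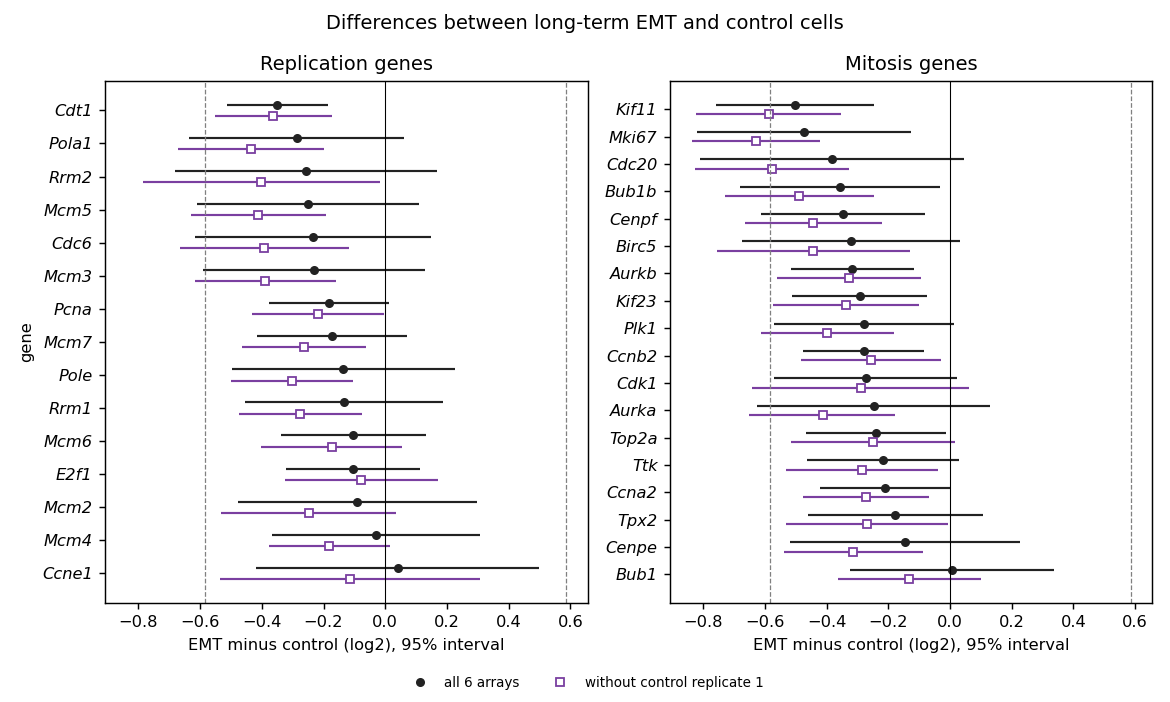
Difference between long-term EMT and control cells for each replication gene (left) and mitosis gene (right), as EMT minus control on the log2 scale with its 95% interval from limma. Filled circles use all 6 arrays, open squares leave out control replicate 1, and dashed lines mark a 1.5-fold change. With all arrays 31 of 33 points lie below 0, and without control replicate 1 all 33 do.

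Leaving out control replicate 1 changed the result for 2 genes. *Mki67* and *Kif11*, both mitosis genes, fell without it, and no replication gene did, with 1.36% of all probe sets lower by the same call. Without this array all 33 means were lower in EMT cells, the median difference was -0.28 (82.6% of control) for the replication genes and -0.33 (79.4%) for the mitosis genes, and 10 replication and 15 mitosis genes were lower at an unadjusted p under 0.05, against 8.28% of all probe sets. The array that decides these counts is low for most of the genes. Control replicate 1 was the lowest of the 3 controls for 14 of 15 replication and 16 of 18 mitosis genes, against 41.7% of all probe sets. It lay a median of 0.45 below the mean of the other controls for replication genes and 0.28 below it for mitosis genes, while the median over all probe sets was 0.02 below.

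The arrays can also be ordered by the median deviation of the replication genes from their own 6-array means. Control replicate 1 lay at -0.20, control replicates 2 and 3 at 0.18 and 0.23, and EMT replicates 1, 2 and 3 at -0.08, -0.16 and -0.03. For replication genes control replicate 1 thus lay below all 3 EMT arrays. For the mitosis genes control replicate 1 lay at -0.05, control replicates 2 and 3 at 0.27 and 0.18, and the EMT arrays at -0.07, -0.19 and -0.13. Here control replicate 1 lay slightly above the EMT arrays and far below the other controls. It was the lowest of all 6 arrays for 6 replication and 2 mitosis genes.

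**Figure D2:**
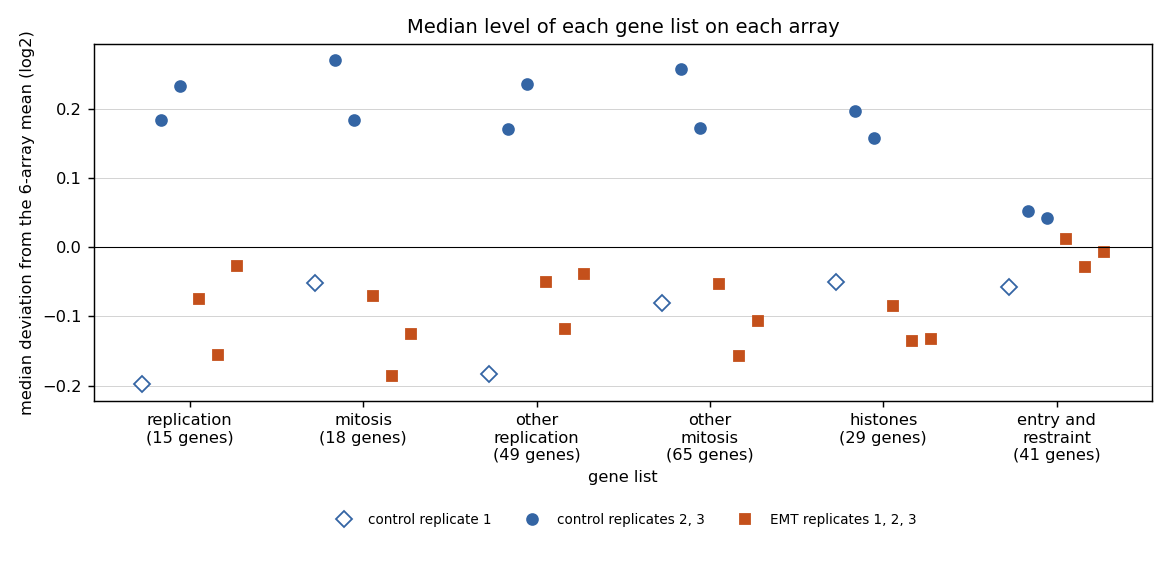
Median deviation of each gene list from the genes' own 6-array means, on the log2 scale, for each array. Open diamonds are control replicate 1, filled circles control replicates 2 and 3, and squares the long-term EMT replicates. For the replication genes control replicate 1 lies at -0.20, below the EMT arrays at -0.16 to -0.03, and for the mitosis genes it lies at -0.05, just above EMT arrays at -0.19 to -0.07.

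All 3 EMT arrays lay below all 3 control arrays for 10 of the 33 genes, 2 for replication (*Cdt1* and *Pcna*) and 8 for mitosis (*Aurkb*, *Ccna2*, *Ccnb2*, *Cenpf*, *Kif11*, *Kif23*, *Mki67* and *Top2a*). Among all probe sets 8.68% lay so. All EMT arrays lay above all controls for 0 members, against 10.5% of all probe sets. Against control replicates 2 and 3 alone, the EMT arrays lay below for 29 of 33 genes, 13 for replication and 16 for mitosis, with 16.0% among all probe sets.

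The promoters of the replication and mitosis genes differed in how often they held CHR elements and E2F words, while CCAAT was frequent in both. Promoter sequences were not used in choosing the genes. The elements searched are those already known to act on such genes, so the split describes the members and is no independent finding. RefSeq promoter windows on mouse build GRCm38.p6, from 250 bases before to 50 after the gene's start, were found for 28 of the 33 genes, as 14 windows of 13 replication genes and 15 windows of 15 mitosis genes. Windows for *Mcm4*, *Pole*, *Ccna2*, *Aurkb* and *Tpx2* were not used here. Searches were made on both strands for CHR elements (TTTGAA or TTTAAA), for CCAAT, and for the E2F words TTTGGCGC, TTTGCCGC, TTTCGCGC and TTTCCCGC. A CHR element was in 14 of 15 mitosis windows (93.3%) and 4 of 14 replication windows (28.6%), and in 25.0% of 21263 windows of protein-coding genes. CCAAT was in 14 mitosis windows (93.3%) and 10 replication windows (71.4%), against 38.2%, and CHR and CCAAT stood together in 13 (86.7%) and 3 (21.4%), against 9.95%. An E2F word was in 7 replication windows (50.0%), those of *Mcm3*, *Mcm5*, *Mcm6*, *Mcm7*, *Cdc6*, *Cdt1* and *Pola1*, and in 1 mitosis window (6.67%), that of *Cdk1*, against 2.85%. Matches are a description of the sequence and do not show that a factor binds there.

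The stretches below show these elements for *Mki67*, *Kif11* and *Cdc20*, the mitosis genes with the largest differences, and for *Mcm6* and *Mcm5*, helicase genes with E2F words. Each is the 150 bases that end just before the gene's start, read 5′ to 3′ on the gene's strand. Capitals mark matches to any of the elements. A match on the other strand is printed as its reverse complement, so that a CHR element there reads TTCAAA, an inverted CCAAT box is ATTGG, and the E2F word of *Mcm5* reads GCGCCAAA.
*Mki67*, chr7:135716380-135716529, minus strand: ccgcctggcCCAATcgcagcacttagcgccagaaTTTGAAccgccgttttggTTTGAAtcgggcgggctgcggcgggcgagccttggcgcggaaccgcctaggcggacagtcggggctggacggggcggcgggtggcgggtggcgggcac
*Kif11*, chr19:37376232-37376381, plus strand: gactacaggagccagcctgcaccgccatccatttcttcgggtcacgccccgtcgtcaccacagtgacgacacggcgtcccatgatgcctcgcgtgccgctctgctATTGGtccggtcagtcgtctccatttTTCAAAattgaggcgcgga
*Cdc20*, chr4:118437344-118437493, minus strand: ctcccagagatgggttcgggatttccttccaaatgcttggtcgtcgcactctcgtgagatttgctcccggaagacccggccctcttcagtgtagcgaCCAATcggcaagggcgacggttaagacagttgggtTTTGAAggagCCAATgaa
*Mcm6*, chr1:128359706-128359855, minus strand: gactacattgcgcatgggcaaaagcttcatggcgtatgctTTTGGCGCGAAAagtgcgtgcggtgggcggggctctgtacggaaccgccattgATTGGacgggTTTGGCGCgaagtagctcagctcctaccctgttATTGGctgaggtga
*Mcm5*, chr8:75109359-75109508, plus strand: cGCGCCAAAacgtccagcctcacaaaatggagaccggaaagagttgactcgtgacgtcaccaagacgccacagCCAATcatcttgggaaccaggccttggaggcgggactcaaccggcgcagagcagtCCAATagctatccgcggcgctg
In the *Mki67* stretch 2 CHR elements follow a CCAAT, in *Kif11* and *Cdc20* the CHR element stands near the end and close to a CCAAT, and the *Mcm6* and *Mcm5* stretches show E2F words and CCAAT but no CHR element. The *Mcm5* window holds a CHR element outside the stretch, and in *Mcm6* a pair of E2F words on opposite strands overlap.

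**Figure D3:**
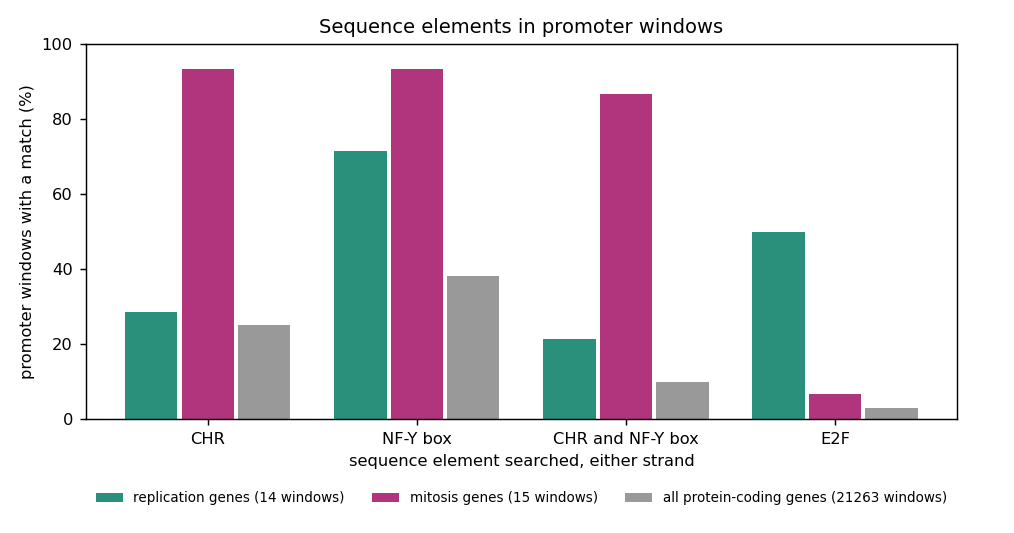
Share of promoter windows (percent) that hold each sequence element on either strand, for replication genes (14 windows), mitosis genes (15 windows) and all protein-coding genes (21263 windows). The NF-Y box is the CCAAT element. CHR elements are in 93.3% of mitosis and 28.6% of replication windows, and E2F words in 6.67% and 50.0%.

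The MCM helicase, which unwinds DNA at the replication fork, was read in full, from *Mcm2* to *Mcm7*. *Mcm5* had the largest difference of the 6 subunits. It read 10.56, 11.01 and 11.08 in control replicates 1, 2 and 3 and 10.61, 10.57 and 10.72 in EMT replicates 1, 2 and 3. The EMT arrays lay at the level of control replicate 1 and below the other controls. The difference was -0.25 (SE 0.15, adjusted p = 0.57), and -0.41 (adjusted p = 0.0837) without control replicate 1. *Mcm4* had the smallest difference, with control values of 10.04, 10.48 and 10.51 and EMT values of 10.36, 10.27 and 10.31. All EMT arrays lay between the controls, at a difference of -0.03 (95% interval -0.37 to 0.31), which turned positive without control replicate 2 or 3. For *Mcm3* the controls read 10.11, 10.55 and 10.62 and the EMT arrays 10.28, 10.10 and 10.21, a difference of -0.23, which was -0.39 without control replicate 1. *Mcm2*, *Mcm6* and *Mcm7* differed by -0.09, -0.10 and -0.17, and that of *Mcm2* turned positive without control replicate 3. Control replicate 1 lay a median of 0.47 below the other controls over the 6 subunits. The median EMT difference was -0.14 from all controls and -0.26 from control replicates 2 and 3.

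The loading factors differed in how closely their controls lay together. *Cdt1*, which brings the helicase to origins, read 10.56, 10.58 and 10.62 in control and 10.25, 10.24 and 10.22 in EMT cells. The 3 controls lay close together, control replicate 1 included, and above all EMT arrays. The difference was -0.35 (SE 0.07, 95% interval -0.51 to -0.19), or 78.5% of control, with adjusted p = 0.0652. This was the largest among the replication genes over 6 arrays. Without control replicate 1 it was -0.36 (adjusted p = 0.0801), and *Pola1*, *Mcm5*, *Rrm2*, *Cdc6* and *Mcm3* differed by more, from -0.44 to -0.39. *Cdc6*, the ATPase that acts with Cdt1, read 7.75, 8.27 and 8.18 in control and 7.74, 7.76 and 8.0 in EMT cells. Its control replicate 1 lay with the EMT arrays, and the difference of -0.23 had an SE of 0.16 and was -0.39 without that array.

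*Pola1*, the catalytic subunit of the polymerase that starts new strands, read 8.40, 8.90 and 8.79 in control and 8.34, 8.37 and 8.52 in EMT cells. Its difference of -0.29 (SE 0.14, adjusted p = 0.482) became -0.44 (adjusted p = 0.0906) without control replicate 1. *Pole*, the leading-strand polymerase, read 9.23, 9.73 and 9.73 in control and 9.42, 9.38 and 9.48 in EMT cells. Control replicate 1 lay below all EMT arrays and the other controls above them, at a difference of -0.14, or -0.30 without control replicate 1. *Pcna*, the sliding clamp, read 12.17, 12.34 and 12.21 in control and 12.06, 12.10 and 12.01 in EMT cells. Its groups did not overlap, at a difference of -0.18 (95% interval -0.38 to 0.01, adjusted p = 0.401).

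Ribonucleotide reductase makes deoxynucleotides, and its subunits *Rrm1* and *Rrm2* were read. *Rrm2*, the subunit made in S phase, read 10.68, 11.01 and 11.22 in control and 10.86, 10.45 and 10.83 in EMT cells. Control replicate 1 lay among the EMT arrays, and the difference was -0.26 (SE 0.18), or -0.40 without that array. *Rrm1* read 11.35, 11.75 and 11.80 in control and 11.51, 11.45 and 11.54 in EMT cells, a difference of -0.13, or -0.28 without control replicate 1. Of the G1/S switch, *E2f1*, an E2F factor itself, read 9.83, 9.79 and 9.71 in control and 9.65, 9.57 and 9.80 in EMT cells, with overlap and a difference of -0.10. It is the replication gene whose control replicate 1 was the highest control. *Ccne1*, the cyclin of the G1/S kinase, read 8.39, 8.67 and 9.03 in control and 8.78, 8.50 and 8.93 in EMT cells. Its difference of 0.04 (95% interval -0.42 to 0.50), the positive one among the replication genes, turned negative without control replicate 1 or EMT replicate 3.

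**Figure D4:**
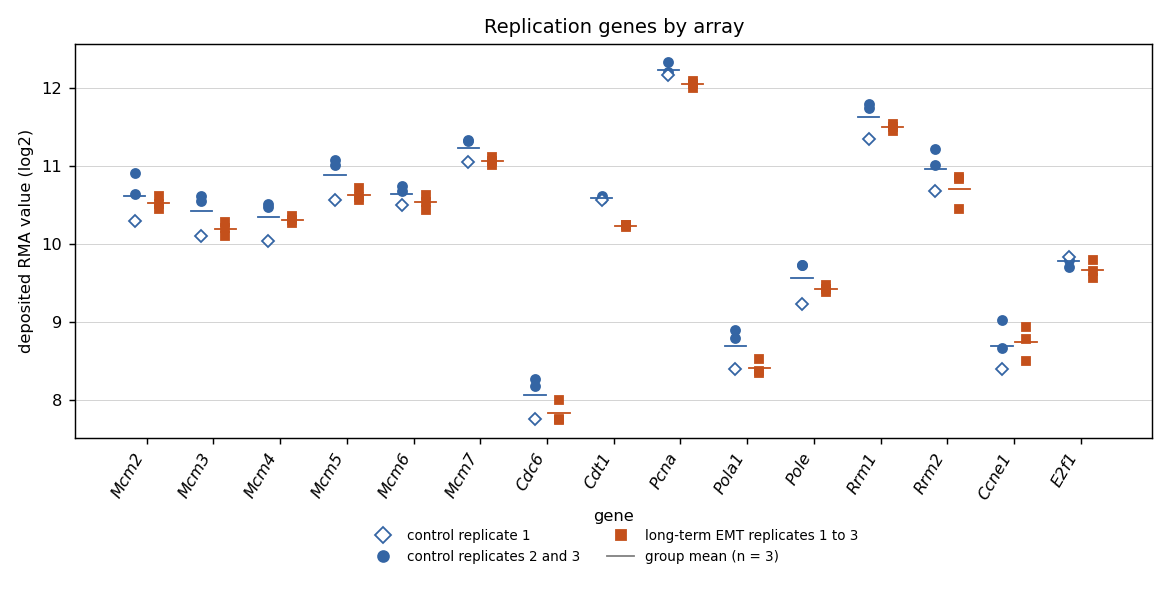
Deposited RMA values (log2) of the 15 replication genes. Open diamonds are control replicate 1, filled circles control replicates 2 and 3, squares the 3 long-term EMT arrays and short lines the group means (n = 3). Control replicate 1 is the lowest control for 14 of 15 genes, and the groups are apart for *Cdt1* and *Pcna*.

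Among the cyclins and the kinase of mitosis, *Ccnb2*, a B-type cyclin, read 11.17, 11.19 and 11.01 in control and 10.84, 10.88 and 10.81 in EMT cells. The groups did not overlap, and control replicate 1 was not low. The difference was -0.28 (SE 0.08, adjusted p = 0.193) and changed little, to -0.26, without control replicate 1. *Ccna2*, the cyclin of S phase and G2, read 11.91, 12.09 and 12.10 in control and 11.89, 11.81 and 11.77 in EMT cells. Its groups were apart by 0.02, at a difference of -0.21 (SE 0.09, adjusted p = 0.369). *Cdk1*, the kinase that starts mitosis, read 11.74, 11.75 and 11.83 in control and 11.75, 11.33 and 11.42 in EMT cells. EMT replicate 1 lay at the control level and the other EMT arrays below it, at a difference of -0.27.

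*Cdc20*, the activator of the anaphase-promoting complex, had the largest difference among the checkpoint and anaphase genes. It read 10.00, 10.54 and 10.62 in control and 9.94, 9.93 and 10.14 in EMT cells. Control replicate 1 lay within the EMT range, and the difference was -0.38 (SE 0.18, adjusted p = 0.431). Without that array it was -0.58 (adjusted p = 0.0491), past the p limit but short of 1.5-fold. *Bub1b*, which encodes the checkpoint protein BubR1, differed by -0.36 and *Ttk*, the checkpoint kinase Mps1, by -0.22. *Bub1*, a checkpoint kinase, read 10.86, 11.32 and 11.23 in control and 11.25, 11.09 and 11.09 in EMT cells. All EMT arrays lay between the controls, at a difference of 0.01 (95% interval -0.32 to 0.34). Its sign was not settled, since it was 0.00 after quantile normalization, -0.02 with equal array medians and -0.13 without control replicate 1.

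Of the mitotic kinases, *Aurkb*, the kinase of the chromosomal passenger complex, read 11.80, 11.86 and 11.81 in control and 11.62, 11.48 and 11.42 in EMT cells. The controls lay within 0.06 of each other and above all EMT arrays, at a difference of -0.32 (SE 0.08, 95% interval -0.52 to -0.12, adjusted p = 0.146). *Birc5*, survivin, a partner of Aurora B in that complex, read 9.09, 9.47 and 9.45 in control and 9.12, 8.80 and 9.13 in EMT cells. Its difference was also -0.32, with an SE of 0.15 and with control replicate 1 at the EMT level, and it was -0.44 without that array. *Aurka*, the kinase of the spindle poles, read 10.08, 10.62 and 10.54 in control and 10.21, 10.05 and 10.24 in EMT cells, a difference of -0.25 (SE 0.16), or -0.41 without control replicate 1. *Plk1*, Polo-like kinase, differed by -0.28.

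*Kif11*, the kinesin that pushes spindle poles apart, had the largest difference of all 33 genes over 6 arrays, and the next largest after *Mki67* without control replicate 1. It read 10.65, 10.99 and 10.81 in control and 10.38, 10.29 and 10.27 in EMT cells. The groups did not overlap, at a difference of -0.50 (SE 0.11, 95% interval -0.76 to -0.25), or 70.5% of control, with adjusted p = 0.0819. Without control replicate 1 *Kif11* fell by 0.59 (SE 0.10, adjusted p = 0.039), just past the fold limit, and it did not pass when any of the other 5 arrays was left out. Its other probe set, dimmer at 5.47 to 6.47, differed by -0.45 (adjusted p = 0.53). *Kif23*, a kinesin of the dividing cell's midzone, read 10.84, 11.06 and 10.89 in control and 10.66, 10.56 and 10.69 in EMT cells, apart at a difference of -0.29 (SE 0.09, adjusted p = 0.217). *Tpx2*, the spindle factor that activates Aurora A, read 10.47, 10.81 and 10.68 in control and 10.61, 10.45 and 10.37 in EMT cells, with overlap and a difference of -0.18, or -0.27 without control replicate 1.

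*Mki67*, the gene of the Ki-67 proliferation marker that coats mitotic chromosomes, read 10.62, 11.15 and 11.02 in control and 10.48, 10.44 and 10.45 in EMT cells. The EMT arrays lay within 0.04 of each other and below all controls, of which control replicate 1 was nearest. The difference was -0.47 (SE 0.14, 95% interval -0.82 to -0.13, adjusted p = 0.209), or 72.0% of control. Without control replicate 1 *Mki67* fell by 0.63 (SE 0.08, adjusted p = 0.0231), and it did not pass when any of the other 5 arrays was left out.

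*Cenpf*, a kinetochore protein, read 9.40, 9.73 and 9.65 in control and 9.21, 9.19 and 9.34 in EMT cells, apart at a difference of -0.35 (SE 0.11, adjusted p = 0.229). *Top2a*, the topoisomerase that untangles chromosomes, read 11.32, 11.41 and 11.29 in control and 11.25, 11.04 and 11.01 in EMT cells. Its groups were apart by 0.04 and its control replicate 1 was not low, at a difference of -0.24 (SE 0.09, adjusted p = 0.337). The other probe sets of *Top2a* lay below the background level on every array and differed by -0.18 and -0.01. *Cenpe*, the kinesin of the kinetochore, read 9.14, 9.72 and 9.56 in control and 9.34, 9.27 and 9.37 in EMT cells. Control replicate 1 was its lowest array, and the difference was -0.15 (SE 0.15), or -0.31 without it.

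**Figure D5:**
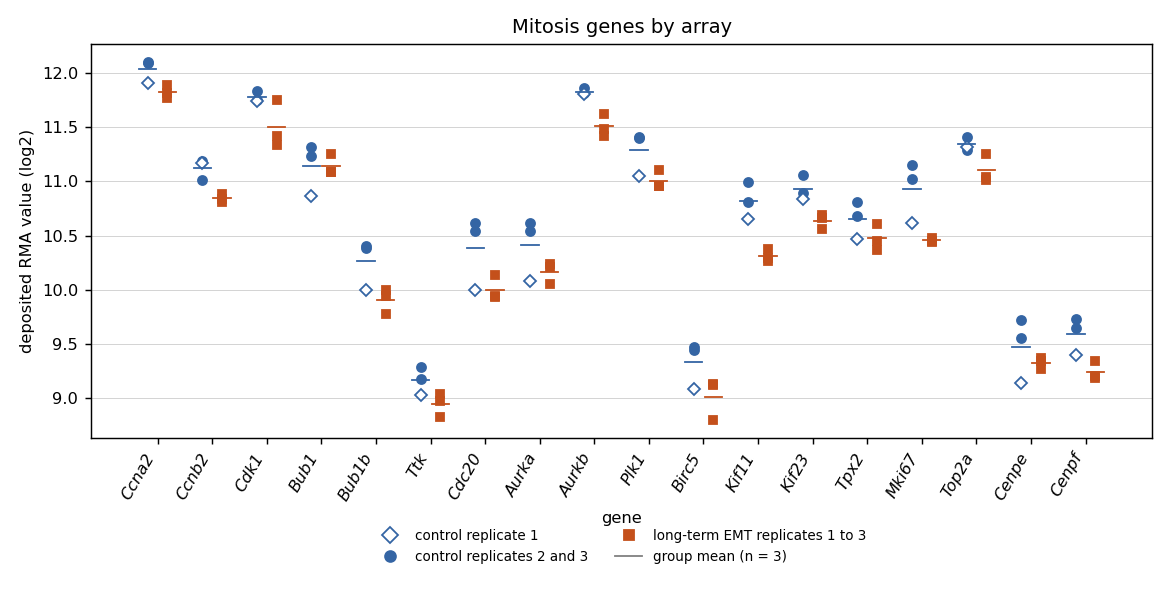
Deposited RMA values (log2) of the 18 mitosis genes, with symbols as in the plot of the replication genes. Control replicate 1 is the lowest control for 16 of 18 genes, and all EMT arrays lie below all controls for 8 genes, *Kif11* and *Mki67* among them.

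The wider pathways were read from longer lists. Of 49 other replication genes measured out of 51 listed, 0 rose and 0 fell, and the median difference was -0.19. The mean was lower for 41, against 44.6% of all probe sets. Without control replicate 1 the median was -0.32 and 3 fell, against 1.36% of all probe sets. Without control replicate 3 the median was -0.10 and 0 fell. At an unadjusted p under 0.05 in limma 1 of them was higher and 8 were lower, and 5 were lower by the methods' t-test. Of all probe sets 6.23% and 5.57% were lower by these tests. The largest fall by value was that of *Dscc1*, a loader of the sliding clamp, at 6.32, 6.68 and 6.69 in control and 5.96, 5.99 and 5.95 in EMT cells, with a difference of -0.60 (adjusted p = 0.0681) and groups apart. *Orc2*, of the origin recognition complex, had the largest rise by value, 0.40 (adjusted p = 0.683), set by control replicate 1 at 8.40 against 9.28 and 9.65 in the other controls. EMT arrays of *Orc2* lay between 9.38 and 9.61, and its difference was 0.04 without control replicate 1.

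Of 65 other mitosis genes measured out of 71 listed, 3 fell, 0 rose and the mean was lower for 57, with a median difference of -0.21, which was -0.35 without control replicate 1. Over all probe sets 0.928% fell, and the mean was lower for 44.6%. At an unadjusted p under 0.05 in limma 22 were lower and 0 higher, and by the methods' t-test 18 were lower, against 6.23% and 5.57% of all probe sets lower. *Cenpm*, a gene of the inner centromere complex, read 10.53, 10.64 and 10.30 in control and 9.56, 9.59 and 9.53 in EMT cells. It fell by 0.93 (SE 0.10, adjusted p = 0.0115), with all EMT arrays far below the controls. *Cenpn*, of the same complex, read 10.38, 10.57 and 10.59 in control and 10.02, 9.86 and 9.85 in EMT cells, and fell by 0.60 (SE 0.10, adjusted p = 0.0344). *Cdc25b*, the phosphatase that activates Cdk1, read 10.11, 10.06 and 10.09 in control and 9.47, 9.33 and 9.53 in EMT cells, and fell by 0.64 (SE 0.08, adjusted p = 0.0173). In *Cenpm* and *Cdc25b* control replicate 1 lay with the other controls, and in *Cenpn* it was 0.20 below their mean. When each array was left out in turn, *Cenpm* passed in 2 of 6 fits and *Cenpn* and *Cdc25b* in 1 of 6, with differences of -1.03 to -0.86, -0.67 to -0.57 and -0.69 to -0.59.

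Of 41 genes that drive or restrain entry into the cycle, out of 43 listed, 1 fell and 0 rose, with a median difference of -0.02. At an unadjusted p under 0.05 in limma 5 were higher and 6 lower, and by the methods' t-test 3 and 5. Of all probe sets 6.23% and 5.57% were lower by these tests, and 0.928% fell at the adjusted p and fold limits. The share of all probe sets higher at an unadjusted p was not counted. *Cdkn2c*, which encodes the Cdk4 and Cdk6 inhibitor p18, read 9.29, 9.49 and 9.43 in control and 8.68, 8.43 and 8.20 in EMT cells, and fell by 0.97 (SE 0.14, adjusted p = 0.0248). It passed in 2 of 6 fits with an array left out. *Rb1*, the retinoblastoma protein gene, read 9.19, 8.87 and 8.78 in control and 9.53, 9.65 and 9.47 in EMT cells. Its difference was 0.60 (adjusted p = 0.0811), and it rose by 0.73 (adjusted p = 0.0206) without control replicate 1. *Gas1*, a growth arrest gene, was highest in control replicate 1, at 7.91 against 6.95 and 6.36 in the other controls and 5.84 to 6.10 in EMT cells, and the part of this in the low replication values of that array was not tested. *Rb1* and *Gas1* were named after their values were seen.

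Markers of cell types were read beside these genes. Of 7 mammary epithelial markers 3 fell (*Cdh1*, *Epcam* and *Krt14*) and 0 rose, and 6 of 7 were above the background level on all arrays. Over all probe sets 0.928% fell and 0.993% rose. Summed over the list on the linear scale, they came to 14894 to 17902 in control and 13089 to 13788 in EMT arrays. *Krt8* and *Krt18*, with the highest signals, made up most of each sum and differed by -0.003 and 0.01. *Krt5* differed by 0.14 and *Krt19* by 0.64. The value of *Krt19* was set by EMT replicate 1, at 7.07 against 5.15 and 5.01 in the other EMT arrays. With each array left out in turn *Cdh1* passed in 6 of 6 fits and *Epcam* and *Krt14* in 3 of 6. Control replicate 1 was the highest array for *Cdh1*, at 10.27 against 9.31 and 9.12 in the other controls. The same held for *Epcam*, at 10.74 against 9.83 and 9.38, and for *Krt18*, but not for *Krt8*, *Krt14*, *Krt19* or *Krt5*. Of 7 fibroblast markers 0 rose or fell in limma, and 5 were above background on all arrays. At an unadjusted p under 0.05 in limma 1 was lower and 1 higher, against 6.23% of all probe sets lower. Their sum was 475 to 948 in control and 426 to 534 in EMT arrays. The mean was higher in EMT cells for 5 of 7, with a median difference of 0.04. *Col1a1* (collagen) differed by 0.62 (adjusted p = 0.137), with all EMT arrays above all controls, and *Dcn* (decorin) by -1.76 (adjusted p = 0.376). *Dcn* read 7.68 in control replicate 1, 5.98 and 4.50 in the other controls and 4.11 to 4.44 in EMT cells. Of 6 leukocyte and 5 endothelial markers 0 rose or fell, with 1 leukocyte marker lower at an unadjusted p under 0.05, and 3 and 2 were above background on all arrays. Their sums were 132 to 143 and 106 to 112 in control arrays, and 134 to 136 and 112 to 122 in EMT arrays. Among the fibroblast, leukocyte and endothelial markers, the largest rise and fall by value were those of *Col1a1* and *Dcn*. The part of cell composition in the values of control replicate 1 was not tested.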

How the data were processed

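RNA from 3 control and 3 long-term EMT samples was hybridized to Affymetrix MoGene-1_1-st-v1 arrays, 1 array per sample. The authors made log2 values with RMA in Affymetrix Expression Console (version not given in the sources used here) and the deposited table gives these log2 values to 2 decimals for 35556 probe sets. RMA sets the arrays to a common distribution, so that a shift shared by all genes is not measured. The deposited values were used without further normalization. Depth does not apply to arrays, and the number of arrays limits the precision. Of the probe sets 21218 have 1 gene symbol, 1881 several and 12457 none. The test of EMT against control was two-sided and came from limma 3.58.1 (lmFit, eBayes; R 4.3.3), and its p-values were adjusted by Benjamini-Hochberg across the whole table. Scripts were tested on simulated data. Promoters were searched in Python 3.11.15.

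The members and lists were chosen with earlier results of these data known. Values per array are given for every member that passed or whose groups did not overlap. They are also given for those with the largest and smallest absolute difference in each of 10 roles, and values of *Mcm3* and *Cdk1* were added. From the other lists, up to 4 genes that passed are named, or the largest rise and fall by value. The alternatives were other normalizations, filters, variance priors, ways to read a gene, tests and thresholds, a replicate block and leaving out each array. Counts at an unadjusted p with no fold limit were added after the data were examined. The methods' t-test was run on the same log2 values.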

Additional observations from a re-analysis of the deposited data

How the results depend on the processing

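No replication member passed in any fit with an adjusted p, and mitosis members passed only without control replicate 1. Leaving out each array in turn gave 0 to 2 mitosis members that fell, 10 to 29 members below all controls (29 without control replicate 1), and 7 to 12 mitosis members with an interval within 1.5-fold (7 without EMT replicate 3). It gave 0 to 3 other replication genes, 0 to 4 other mitosis genes and 0 to 3 histone genes that fell, and 0 to 1 entry and restraint genes that rose and 0 to 1 that fell. The calls of *Cenpm*, *Cenpn*, *Cdc25b* and *Cdkn2c* were lost without control replicate 2, EMT replicate 2 or EMT replicate 3, those of all but *Cdkn2c* also without EMT replicate 1, and those of all but *Cenpm* also without control replicate 3. The calls of *Epcam* and *Krt14* were lost without control replicate 2, EMT replicate 2 or EMT replicate 3. The median difference of the other mitosis genes ranged from -0.35 to -0.16, and that of the other replication genes from -0.32 to -0.10. Differences near 0 changed sign, with ranges of -0.132 to 0.098 for *Bub1*, -0.113 to 0.207 for *Ccne1*, -0.248 to 0.057 for *Mcm2* and -0.182 to 0.053 for *Mcm4*, and *Bub1* was at -0.022 with equal array medians.

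Whether same-numbered samples pair was not settled. Their deviations correlated at 0.19, 0.02 and 0.25, and those of samples with different numbers at -0.27 to 0.14. Not every sample correlated best with its own number. With a replicate block 0 replication and 0 mitosis members passed, 1 other mitosis gene fell and 0 entry and restraint genes fell.

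Equal array medians, an adjusted p with no fold limit, an unadjusted limma p with the fold limit, and the methods' t-test so used each gave 1 other replication gene that fell. At an unadjusted p with the fold limit, limma gave 1 entry and restraint gene that rose and 3 that fell, and the methods' t-test 1 and 2. After Benjamini-Hochberg adjustment the methods' t-test gave 0 other mitosis genes and 0 entry and restraint genes. At an unadjusted p with no fold limit, chosen after the data were examined, limma gave 1 replication and 8 mitosis members lower, 1 other replication gene higher and 8 lower, 22 other mitosis genes lower, 5 entry and restraint genes higher and 6 lower, and 6 histone genes lower. The methods' t-test used in this way gave 2, 8, 5, 18 and 4 lower for the replication and mitosis members, the other replication, other mitosis and histone genes, and 3 higher and 5 lower for the entry and restraint genes. Searched on the coding strand only, CHR was in 80.0% of mitosis and E2F words in 35.7% of replication windows, against 19.1% and 1.48% of protein-coding windows. With 3 arrays per group, SEs of 0.07 to 0.19 limit what a difference of this size can show.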

Other observations

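Replication-dependent histone genes, which package new DNA in S phase, were read from symbols matched to the annotation after it had been seen. Whether each matched gene is expressed in S phase was not checked. Of the 29 genes 26 were above the background level on all arrays. Of 29 such genes 0 rose and 0 fell in limma, with 6 lower and 0 higher at an unadjusted p under 0.05 and 4 lower by the methods' t-test, against 6.23% and 5.57% of all probe sets lower. The mean was lower in EMT cells for 28 of 29, against 44.6% of all probe sets, with a median difference of -0.23. Without control replicate 1 the median was -0.28 and 3 fell, against 1.36% of all probe sets. These were *H1f5* by 0.76, *H2bc18* by 0.66 and *H2ac8* by 0.59 (adjusted p = 0.0107, 0.027 and 0.0249). Control replicate 1 lay at -0.05 in the median deviation from the 6-array mean, control replicates 2 and 3 at 0.20 and 0.16, and the EMT arrays at -0.09, -0.14 and -0.13. The largest fall by value was that of *H3c15*, a histone H3 gene, with a difference of -0.80 (SE 0.37, adjusted p = 0.431). The highest difference was 0.07, for *H2ac6*, which was not above background on all arrays. Near-identical copies of these genes can share probes, so that values of single histone genes are uncertain.

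*Spc24*, a subunit of the kinetochore's microtubule-binding complex, read 7.96, 8.35 and 8.43 in control and 7.29, 7.24 and 7.63 in EMT cells. All EMT arrays lay below all controls, at a difference of -0.86 (SE 0.17, adjusted p = 0.0629), and *Spc24* fell by 1.00 (adjusted p = 0.025) without control replicate 1. Without that array *Rfc5* and *Tk1* of the other replication genes also fell, by 0.60 (adjusted p = 0.0432) and 0.75 (adjusted p = 0.0296), as did *Dscc1* by 0.72 (adjusted p = 0.011). Rfc5 is a subunit of clamp loaders, and Tk1 is the thymidine kinase of dividing cells. *Spc24*, *Rfc5* and *Tk1* were named after their values were seen.

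The mitosis gene with the smallest difference, *Bub1*, was also the one whose promoter window held no CHR element among the 15 mitosis windows searched. This was noticed after the values were seen and rests on 1 gene, and a link between element and difference was not tested.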
